A study of Mus musculus with 36 samples.

Results

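Sham-treated hippocampal slices of T41B mice were compared between mice that had received BD10-2 and mice that had received vehicle. The samples were chosen by their labels: genotype T41B, no stimulation, and either treatment. They number 9 of the 32 mouse-by-stimulation samples of the study, with 5 mice on BD10-2 (Mouse1557, Mouse1563, Mouse1564, Mouse1570 and Mouse1592) and 4 mice on vehicle (Mouse1510, Mouse1551, Mouse1553 and Mouse1579). Mouse1557 was sequenced as 2 libraries with the same labels, which were added. The labels do not say whether they are 2 slices, and their values differed for some genes. The fold changes, list medians and counts of genes by p were therefore also computed with either library alone. Per-mouse values below follow this order of mouse numbers.

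T41B mice are the Thy1-hAPP Lond/Swe amyloid model, line 41, in which a Thy1 promoter cassette drives human amyloid precursor protein with the London and Swedish mutations mainly in neurons. All 9 mice carried the transgene. BD10-2 or vehicle was given by oral gavage for 3 months, from 13 to 16 months of age, and right hippocampal slices then went through a sham procedure and were frozen at once. Wild-type C57BL/6 mice given vehicle (4 mice) or BD10-2 (3 mice) under the same sham procedure served as the background for the effect of genotype and of treatment. The labels give no sex.

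BD10-2 is a small molecule studied as a modulator of TrkB and TrkC, the receptor tyrosine kinases for brain-derived neurotrophic factor and neurotrophin-3. These receptors signal through Ras and MAP kinase, phosphoinositide 3-kinase and phospholipase C gamma, and in the hippocampus they are known for their part in synaptic strength, spine upkeep and neuronal survival. Amyloid plaques are known to be ringed by microglia that turn on a lipid-handling and lysosomal programme, and by astrocytes rich in intermediate filaments.

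Every one of the 8 labelled batches held a single treatment, so BD10-2 and batch cannot be told apart in any value for BD10-2 against vehicle. Only the difference between the T41B and the wild-type treatment values could be fitted with batch as a term, through the 4 batches with sham samples of both genotypes. The 9 samples lay in 7 batches: on vehicle, Mouse1510 in A, Mouse1579 in C, and Mouse1551 and Mouse1553 in G; on BD10-2, Mouse1557 in B, Mouse1592 in D, Mouse1570 in I, and Mouse1563 and Mouse1564 in H. Total expected counts ran from 11597555 to 37822476 per sample. Total count, the mitochondrial share, the share of the 10 most abundant genes, the number of detected genes and the ribosomal protein share overlapped between the treatments, with exact two-sided permutation p-values from 0.571 to 0.889 (adjusted over these 5 measures, 0.862 to 0.889, where the smallest p that 126 assignments allow is 0.0159). The median distance between 2 samples, as the root mean square difference in log2 CPM, was 0.412 within the vehicle group, 0.296 within the BD10-2 group and 0.344 between the groups, so samples of different treatments were no farther apart than vehicle mice were from each other. Transgene status was checked through Thy1, whose CPM was 1034, 1968, 1679 and 2099 on vehicle and 1044, 1939, 1517, 2168 and 2251 on BD10-2, against 362 ± 40.7 (SD, n = 4) in wild-type vehicle mice. Whether transgene reads are counted under Thy1 is not given in the sources used here.

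No single gene passed the test. With edgeR's quasi-likelihood F test and Benjamini-Hochberg adjustment over all 19478 genes tested, 0 genes (0.0%) reached an adjusted p under 0.05, and the adjusted p of each gene was 1.0. Without adjustment 431 genes had a p under 0.05, of which 230 were higher (1.18%) and 201 lower (1.03%) with BD10-2. DESeq2 called 0 genes, with 424 at an unadjusted p under 0.05, and limma-voom called 0, with 438. In 79 genes (0.406%) every BD10-2 mouse lay above every vehicle mouse, and in 69 (0.354%) every BD10-2 mouse lay below. The median log2 fold change over all genes was -0.01, and 47.0% of genes had a positive value. Since each batch held a single treatment, these p-values measure the spread between mice and carry any batch difference with the treatment. Fold changes below are log2 of BD10-2 over vehicle, CPM is a gene's count relative to the scaled size of its library, and each gene named is one that did not pass the test.

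The precision of the comparison differed with expression. The 95% interval of the fold change lay within 2-fold in either direction for 83.3% of all genes tested, for 94.7% of genes averaging at least 1 CPM and for 99.2% of those averaging at least 10 CPM. Within 1.5-fold it lay for 62.2%, 75.1% and 95% of the same sets, the last being 9351 of 9840 genes. Among abundant genes a 1.5-fold difference was therefore outside the interval for most.

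**Figure D1:**
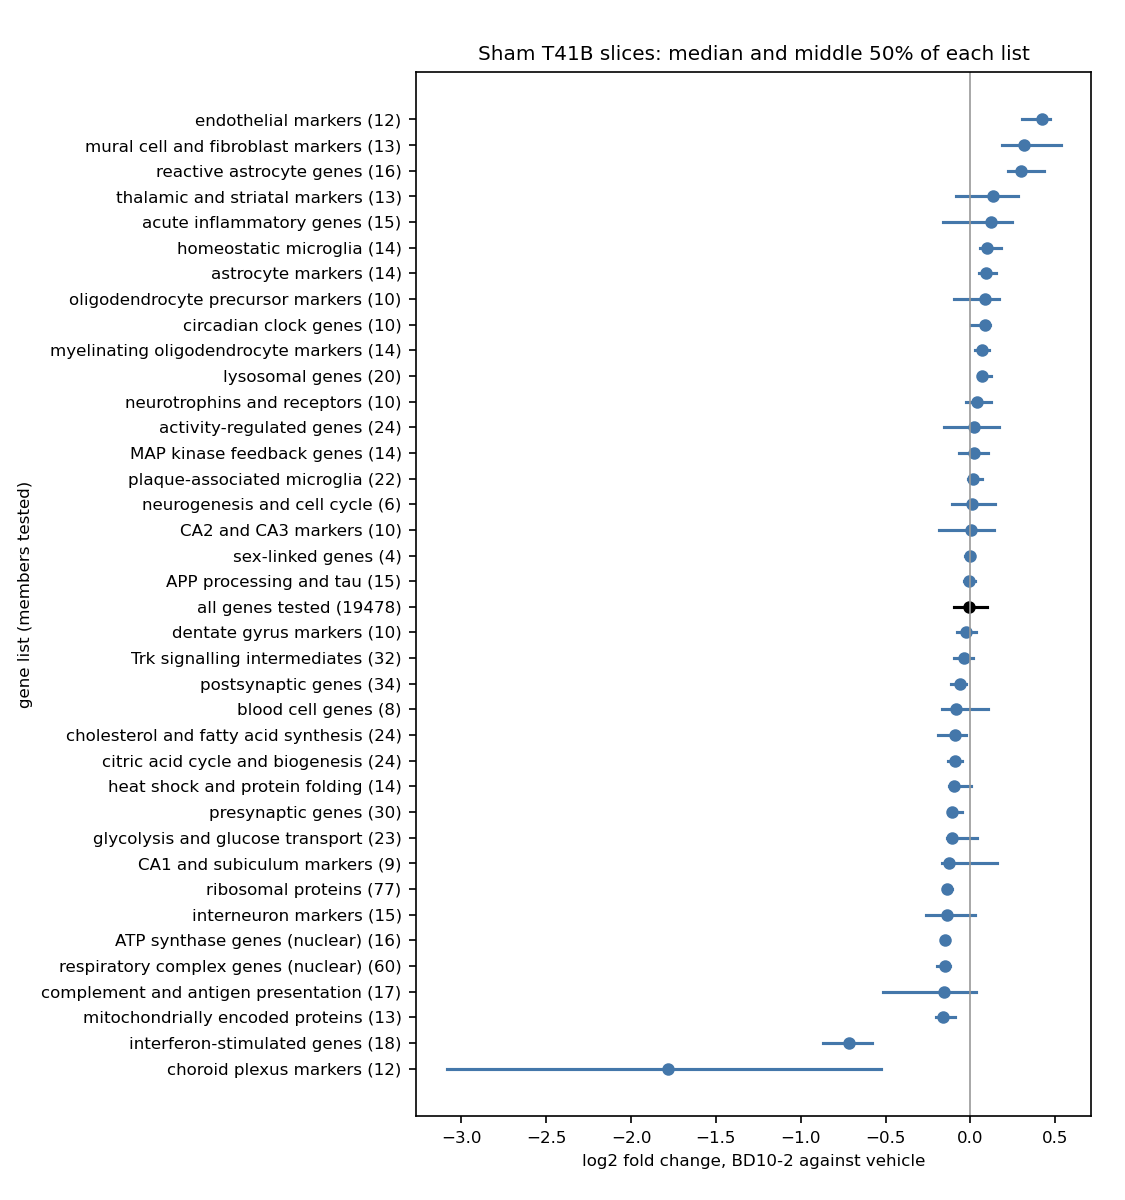
Median log2 fold change of each gene list, BD10-2 against vehicle in sham T41B slices (x axis), with a line from the first to the third quartile of its members and the number of members tested in brackets; all 19478 genes are in black. Most lists lie within 0.2 of 0, with choroid plexus markers at -1.78 and interferon-stimulated genes at -0.71 on the low side and endothelial markers at 0.42 on the high side.

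The neurotrophins and their receptors came first, as the targets of the compound. Ntrk2 (ENSMUSG00000055254), which encodes TrkB, lies on chromosome 13 (GRCm38, 58806569 to 59133970, plus strand). Its level was 670.3, 587, 488 and 685 CPM on vehicle and 648, 686, 702, 605 and 659 CPM on BD10-2. The lowest vehicle mouse, Mouse1553, was below all others and the groups overlapped, with a fold change of 0.12 (SE 0.08, 95% interval -0.04 to 0.28). Ntrk3 (ENSMUSG00000059146), which encodes TrkC, lies on chromosome 7 (78175959 to 78738012, minus strand). It measured 445, 376, 252 and 350.2 CPM on vehicle and 350.1, 403, 314, 369.6 and 367 CPM on BD10-2. The vehicle mice spanned the whole range of the BD10-2 mice, and the fold change was 0.02 (SE 0.13, -0.25 to 0.29).

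Bdnf, the ligand of TrkB, was at 36.7, 33.1, 21.1 and 34.8 CPM on vehicle and 29.4, 31.5, 28.7, 34.1 and 29.1 CPM on BD10-2. Mouse1553 was again the lowest, and the fold change was -0.04 (SE 0.14). Ntf3, the ligand of TrkC, gave 0.06 (SE 0.23) from levels under 5 CPM. The shared receptor p75, Ngfr, measured 1.98 ± 0.606 CPM on vehicle (SD, n = 4) and 2.18 ± 0.391 on BD10-2 (SD, n = 5). Of the sorting receptors that carry neurotrophins and Trk receptors through the cell, Sort1 gave -0.03 (SE 0.08) and Sorcs1 the largest value of the family at 0.31 (SE 0.19, -0.08 to 0.69). Sorcs1 stood at 14.5, 13.3, 21.6 and 21.3 CPM on vehicle and 24.02, 18.5, 28.1, 19.6 and 19.2 CPM on BD10-2, with overlap. Of the 12 listed genes 10 were tested, 6 of them with a positive fold change and 0 with an unadjusted p under 0.05. Ntf5, another ligand of TrkB, was at or below 0.106 CPM and was not tested.

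**Figure D2:**
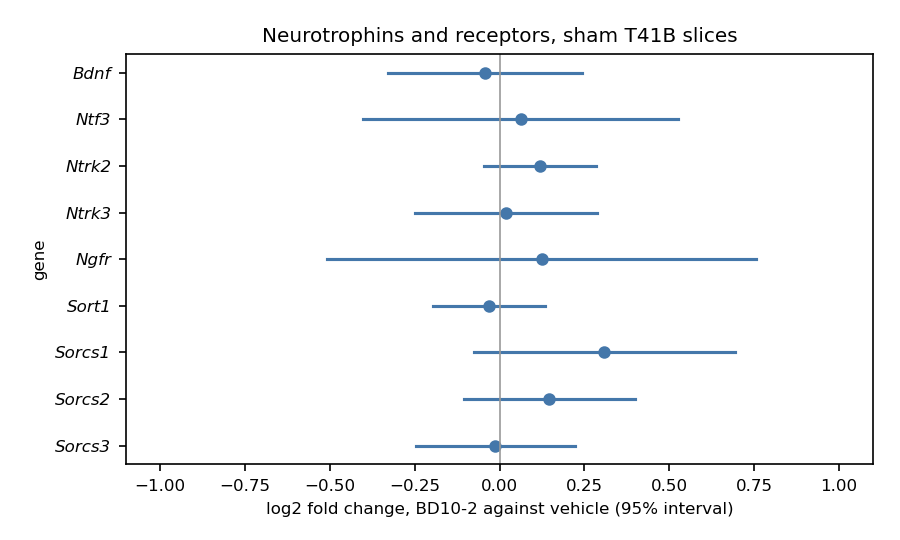
Log2 fold change with its 95% interval (x axis) for 9 of the 10 tested neurotrophin and receptor genes, BD10-2 against vehicle in sham T41B slices. All 9 intervals include 0; that of Ntrk2 runs from -0.04 to 0.28.

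Genes downstream of Trk receptors gave a similar picture. Of 32 signalling intermediates 11 had a positive fold change, with a median of -0.04 (-0.01 without Mouse1553 and -0.00 without batch G). Shc1, an adaptor that docks on Trk receptors, averaged 12.4 ± 1.42 CPM on vehicle (SD, n = 4) and 14.5 ± 1.013 on BD10-2 (SD, n = 5). MAP kinase feedback genes, such as the phosphatases and Sprouty genes that the pathway switches on, had a median of 0.02 over 14 members, 9 of them positive, which was -0.03 without Mouse1564, -0.01 without Mouse1551 and 0.08 without Mouse1592.

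Activity-regulated genes, which neurons switch on after firing or Trk activation, had a median of 0.02 over 24 members, 13 positive. The sign depended on which mice were used: without Mouse1579 the median was 0.11 with 16 positive, and without both mice of batch G it was -0.06 with 10 positive. With all mice Btg2, an antiproliferative early-response gene, was the 1 member of 24 below an unadjusted 0.05 in edgeR, against 1.18% of all genes higher (unadjusted p = 0.00696). Its values were 29, 30.9, 29.9 and 40.9 CPM on vehicle and 37.96, 39.8, 48.3, 32.1 and 55.3 CPM on BD10-2, so the highest vehicle mouse lay inside the BD10-2 range, and the fold change was 0.39 (SE 0.13). Arc, which encodes a synaptic capsid-like protein, gave -0.23 (SE 0.23) in T41B slices and 0.64 in wild-type slices, and the difference of these 2 values, -0.87 (SE 0.34), had an edgeR unadjusted p of 0.0168. With batch as a term the Arc difference was -0.38 (SE 0.37). Across all genes the difference between the T41B and the wild-type treatment values gave 0 genes at an edgeR adjusted p under 0.05 (0.0%), with 364 at an unadjusted p under 0.05, 56.6% of them positive. With batch as a term, which left 6 residual degrees of freedom, it also gave 0, with 825 at an unadjusted p under 0.05, 45.1% of them positive, and a smallest edgeR adjusted p of 0.846. The transgene carriers' own App gene, which encodes the amyloid precursor protein, was at 1137 ± 29.1 CPM on vehicle (SD, n = 4) and 1106 ± 71.8 on BD10-2 (SD, n = 5).

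Synaptic genes had slightly lower means with BD10-2. Of 30 presynaptic genes, for vesicle and release proteins, 2 had a positive fold change (1 to 9 over the 22 alternative fits given below). Their median was -0.11, against -0.01 over all genes. Of 34 postsynaptic genes, for receptors and scaffolds, 5 were positive with a median of -0.06 (-0.09 and -0.02 with only the first or only the second library of Mouse1557, -0.03 without Mouse1510 or Mouse1551, -0.09 without Mouse1570 and -0.10 without Mouse1592). In neither list did a member have an unadjusted p under 0.05, and for all 30 presynaptic and all 34 postsynaptic genes the 95% interval lay within 1.5-fold. Each list's level was also taken per mouse as a score, the mean of log2(CPM + 1) over its tested members. The presynaptic score was 8.67, 8.38, 8.69 and 8.74 on vehicle and 8.58, 8.49, 8.48, 8.56 and 8.58 on BD10-2. Mouse1551 was the lowest of all 9 and the other 3 vehicle mice were the highest, so the groups overlapped through 1 mouse. Leaving out Mouse1551 gave a list median of -0.16, and the median stayed between -0.16 and -0.06 with each mouse left out in turn. The postsynaptic score was 8.37, 8.44, 8.28 and 8.31 on vehicle and 8.25, 8.17, 8.20, 8.41 and 8.42 on BD10-2. Mouse1563 and Mouse1564, both of batch H, were lowest, and without both the postsynaptic median was 0.01 with 18 of 34 genes positive.

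Single synaptic genes showed how small these values were against the spread between mice. Syn2, a synapsin that tethers vesicles, was at 435, 313, 454 and 470.3 CPM on vehicle and at 401, 376, 329, 358 and 365 CPM on BD10-2. Again Mouse1551 was the lowest and the other vehicle mice the highest, with a fold change of -0.19 (SE 0.14). Snap25, a part of the fusion complex, gave -0.11 (SE 0.14), and Syt1, the calcium sensor of release, gave -0.01 (SE 0.11). Camk2a, the abundant kinase of the postsynaptic density, was at 3955 ± 532 CPM on vehicle (SD, n = 4) and 3692 ± 572 on BD10-2 (SD, n = 5). Dlgap1, a scaffold of that density, had the largest effect relative to its error among these examples, -0.12 (SE 0.07, edgeR unadjusted p = 0.0879).

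The vehicle T41B mice are also the group compared with wild-type mice, so the treatment and genotype values share 4 samples and their signs are not independent. Side by side, the presynaptic median was -0.11 for BD10-2 against vehicle in T41B and -0.18 for T41B against wild-type vehicle mice, where 5 of 30 genes were called, all lower in T41B, against 1.24% of all genes called lower. In wild-type sham slices the BD10-2 median was -0.11 for presynaptic and 0.00 for postsynaptic genes. That comparison shares no sample with the T41B one, but it shares batches A and C on vehicle and D and I on BD10-2. Treatment and batch cannot be told apart in either comparison, so their values are not independent of shared batches. The presynaptic score was 8.81 ± 0.130 in wild-type vehicle mice (SD, n = 4) and 8.54 ± 0.051 in T41B mice on BD10-2 (SD, n = 5). In the batches with sham samples of both genotypes, the T41B score minus that of the wild-type batch mate (in I, the mean of 2) was taken. It was -0.20 and -0.17 in the vehicle batches A and C, and -0.29 and -0.06 in the BD10-2 batches D and I.

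**Figure D3:**
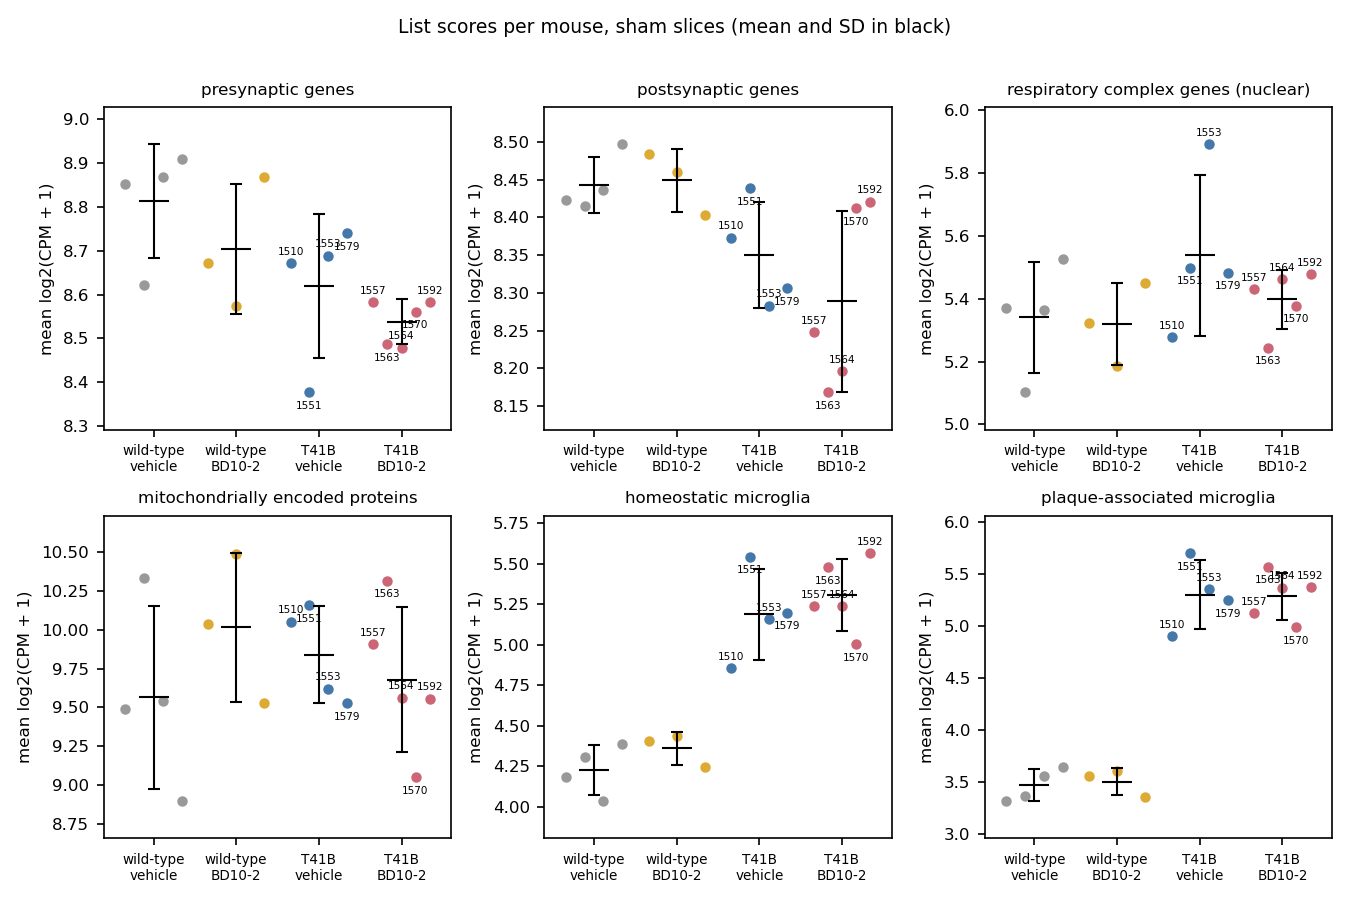
Score of 6 gene lists in sham slices (y axis, mean log2(CPM + 1)) for each mouse of the 4 groups, with T41B mice numbered and the mean and SD in black. In all 6 panels the T41B vehicle and BD10-2 mice overlap, and both microglial scores are above the wild-type mice in all 9 T41B mice.

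Nuclear genes of energy metabolism had lower means with BD10-2, and most of this rested on Mouse1553 of the vehicle group. Of 60 nuclear genes of respiratory complexes I to IV, 1 had a positive fold change, with a median of -0.15. Of 16 nuclear ATP synthase genes 0 were positive, with a median of -0.15. The respiratory score was 5.28, 5.50, 5.89 and 5.48 on vehicle and 5.43, 5.24, 5.46, 5.38 and 5.48 on BD10-2. Mouse1553 was well above every other mouse, Mouse1551 and Mouse1579 were at or just above the highest BD10-2 mouse, and Mouse1510 lay near the lowest. Without Mouse1553 the respiratory median was -0.01 with 25 of 60 genes positive, and without both mice of its batch it was 0.02 with 39 of 60 positive. The ATP synthase median was -0.01 without Mouse1553.

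The same mouse stood out gene by gene. Cox7c, a small subunit of cytochrome oxidase, was at 48.6, 59.1, 99.2 and 61.2 CPM on vehicle and 56.1, 41.6, 57.1, 53.5 and 57.2 CPM on BD10-2, a fold change of -0.34 (SE 0.19). Ndufa5 of complex I stood at 26.7, 34.95, 47.3 and 31.8 CPM on vehicle and 28.99, 25.04, 31.1, 28.1 and 30.9 CPM on BD10-2. In the fit with all mice it was the 1 respiratory gene of 60 below an unadjusted 0.05 in edgeR (unadjusted p = 0.0444). In that fit the share was near the 1.03% of all genes. Ndufs1, the largest core subunit of complex I, was at 79.8 ± 3.90 CPM on vehicle (SD, n = 4) and 79.9 ± 2.81 on BD10-2 (SD, n = 5). Ribosomal protein genes, which like Cox7c are short transcripts, followed the same mouse: 0 of 77 were positive with a median of -0.14, and without Mouse1553 68 of 77 were positive with a median of 0.05. Over the 4024 genes of the shortest length quartile, the median deviation from the mean of the 9 mice in log2 CPM was 0.162 in Mouse1553, the highest of all 9, and -0.099 in Mouse1510, the lowest. In a fit with offsets for gene length and GC content the respiratory median was -0.17 and the ribosomal protein median -0.16, so both kept their sign there.

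Mitochondrially encoded genes overlapped widely between the treatments. Their score was 10.1, 10.2, 9.62 and 9.53 on vehicle and 9.91, 10.3, 9.56, 9.05 and 9.56 on BD10-2, with the highest and the lowest mouse both on BD10-2. Of 13 genes 3 were positive, with a median of -0.16. The median was -0.03 without Mouse1510, -0.04 without Mouse1570, -0.05 without Mouse1551, -0.29 without Mouse1553, -0.28 without Mouse1579 and -0.32 without Mouse1563. mt-Co1, the catalytic core of cytochrome oxidase, was at 16750, 16030, 10760 and 10600 CPM on vehicle and 13930, 15430, 10900, 8200 and 10460 CPM on BD10-2. mt-Atp6, an ATP synthase subunit, had an edgeR unadjusted p of 0.0403, and it was lowest in Mouse1570 at 400.2 CPM and highest in Mouse1553 at 1313 CPM.

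Glycolysis genes had a median of -0.11 (8 of 23 positive) and citric acid cycle and biogenesis genes a median of -0.09 (2 of 24 positive). Without Mouse1553 these medians were -0.03 and -0.01. Idh3b, a subunit of the mitochondrial isocitrate dehydrogenase, was the 1 citric acid cycle member of 24 whose groups did not overlap (0.354% of all genes lay this way). It was at 108, 118, 139 and 112 CPM on vehicle and 103, 95.5, 101, 103 and 105 CPM on BD10-2, highest in Mouse1553. Its fold change was -0.23 (SE 0.10) and ran from -0.27 to -0.12 over the alternatives. Slc2a1, the glucose transporter of the blood-brain barrier, gave 0.22 (SE 0.14). Ppargc1a, a coactivator that drives mitochondrial biogenesis, gave -0.03.

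**Figure D4:**
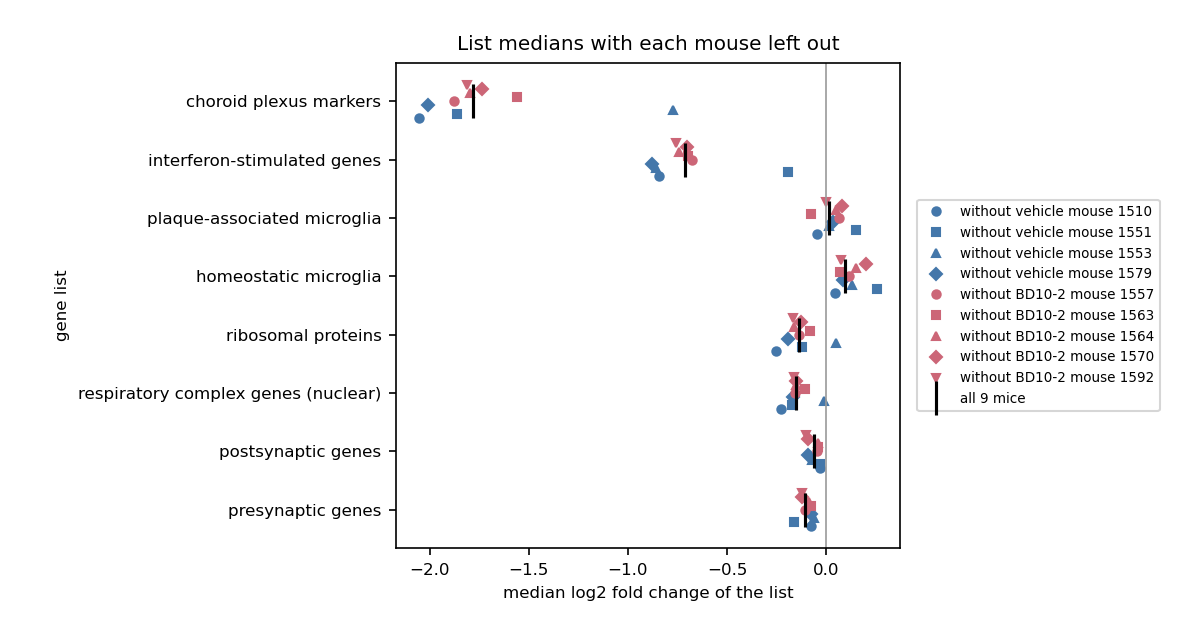
Median log2 fold change of 8 gene lists (x axis) with all 9 mice (black bar) and with each mouse left out in turn (symbols, blue for vehicle and red for BD10-2). Leaving out Mouse1553 brings the respiratory median to -0.01 and the choroid plexus median to -0.77, and leaving out Mouse1551 brings the interferon median to -0.20.

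Microglial genes were high in T41B mice of both treatments and their treatment values were small. All 14 homeostatic microglial genes had a positive fold change, with a median of 0.10 and 0 members at an unadjusted p under 0.05. The median was 0.05 without Mouse1510, 0.20 without Mouse1570, 0.15 without Mouse1564 and 0.26 without Mouse1551. The homeostatic score was 4.86, 5.54, 5.16 and 5.20 on vehicle and 5.24, 5.48, 5.24, 5.003 and 5.57 on BD10-2. Mouse1510 was the lowest and the groups overlapped almost fully, with means of 5.19 ± 0.281 (SD, n = 4) and 5.30 ± 0.222 (SD, n = 5). In bulk slices a difference in the number of microglia and a difference in RNA per cell cannot be told apart. Cx3cr1, the fractalkine receptor, was at 55.8, 109, 72.8 and 81.5 CPM on vehicle and 87.7, 92.95, 88.0, 76.2 and 121 CPM on BD10-2, a fold change of 0.22 (SE 0.21). Tmem119, a microglial surface marker, gave 0.22 (SE 0.24).

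Genes of plaque-associated microglia had a median of 0.02, with 14 of 22 positive, and its sign depended on single mice (-0.08 without Mouse1563, -0.05 without Mouse1510, 0.15 without Mouse1551). Their score was 4.90, 5.70, 5.35 and 5.25 on vehicle and 5.12, 5.57, 5.37, 4.99 and 5.37 on BD10-2, so the extremes at both ends were vehicle mice. Cst7, which encodes cystatin F, was at 21.6, 42.4, 26.5 and 31.1 CPM on vehicle and 28.3, 48.7, 33.8, 20.4 and 38.1 CPM on BD10-2, against 0.339 ± 0.167 CPM in wild-type vehicle mice (SD, n = 4). Trem2, the lipid-sensing receptor that the plaque programme depends on, averaged 45.9 ± 13.1 CPM on vehicle (SD, n = 4) and 45.7 ± 7.62 on BD10-2 (SD, n = 5). Its 95% interval, -0.45 to 0.44, lay within 1.5-fold in either direction. Apoe gave 0.07 (SE 0.16), and Lgals3, galectin-3, gave -0.58 (SE 0.39) from vehicle values of 2.12, 4.15, 6.86 and 3.41 CPM.

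By genotype, 21 of these 22 genes were called in T41B against wild-type vehicle mice, with a median of 2.26, in a comparison where 5.0% of all genes were called higher. These values share the vehicle T41B mice with the treatment comparison. Within the batches with sham samples of both genotypes, the plaque-associated score of the T41B mouse exceeded that of wild type. The excess was 1.34 and 1.61 in the vehicle batches and 2.02 and 1.41 in the BD10-2 batches. The range of the vehicle batches and that of the BD10-2 batches overlapped. Lysosomal genes, which handle engulfed material, had a treatment median of 0.07 with 16 of 20 positive, which was -0.01 without Mouse1510 and 0.20 without Mouse1551. Their genotype median was 0.80.

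Complement and antigen-presentation genes depended on single mice. Their median was -0.16 with 5 of 17 positive, and without Mouse1551 it was 0.20 with 14 of 17 positive. It was -0.32 without Mouse1510, -0.28 without Mouse1564, -0.26 without Mouse1553, -0.24 without Mouse1579 and -0.08 without Mouse1557. Cd74, the invariant chain of class II antigen presentation, was at 18, 157, 54.4 and 45.3 CPM on vehicle and 18.8, 36.3, 113, 32.7 and 39.9 CPM on BD10-2. One mouse in each group, Mouse1551 and Mouse1564, lay far above the rest. B2m, the light chain of class I molecules, was at 81.4, 264, 116 and 113 CPM on vehicle, with all 5 BD10-2 mice between 99.4 and 150.4 CPM.

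Interferon-stimulated genes, which cells switch on after type I interferon, had lower means with BD10-2 in all 18 members tested. The median was -0.71, and 6 of the 18 had an unadjusted p under 0.05, all lower, against 1.03% of all genes in that direction. Both statements rested on Mouse1551. The interferon score was 2.47, 3.72, 2.73 and 2.55 on vehicle and 2.41, 2.37, 2.58, 2.16 and 2.57 on BD10-2, and without Mouse1551 the median was -0.20 with 4 of 18 members positive. Irf7, the transcription factor that amplifies the interferon response (ENSMUSG00000025498, chromosome 7, 141262706 to 141266481, minus strand), was at 2.44, 14.7, 3.61 and 4.46 CPM on vehicle and 3.27, 2.33, 2.72, 2.81 and 3.44 CPM on BD10-2. Its fold change was -1.12 (SE 0.47, edgeR unadjusted p = 0.0234) with all mice and -0.26 without Mouse1551. Rtp4, an interferon-induced chaperone of receptors, was the 1 member of 18 whose groups did not overlap (0.354% of all genes lay this way), with 2.88, 7.06, 3.46 and 2.99 CPM on vehicle and 2.22, 2.54, 2.31, 2.23 and 2.595 CPM on BD10-2.

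The promoters of several of these genes are shown because the list is defined by a shared response to interferon. The motif searched was GAAANNGAAA, the core of the interferon-stimulated response element, and its reverse complement TTTCNNTTTC, both strands, with matches taken from left to right without overlap. It was found in the 250 bases before the start in 5 of the 12 listed genes that had a RefSeq promoter (41.7%), in 407 of 12445 tested genes (3.27%) and in 936 of all 27025 genes with one (3.46%). Below are 4 of the 5 stretches, from RefSeq on GRCm38.p6, written 5′ to 3′ on the gene's strand with 30 bases on each side. Capitals mark the matches.
Isg15, chr4:156200845-156200926, minus strand: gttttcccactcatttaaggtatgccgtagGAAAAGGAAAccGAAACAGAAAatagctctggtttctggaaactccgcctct
Ifit1, chr19:34640755-34640843, plus strand: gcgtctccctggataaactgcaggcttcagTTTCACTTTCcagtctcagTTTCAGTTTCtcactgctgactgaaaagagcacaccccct
Ifit3, chr19:34583343-34583446, plus strand: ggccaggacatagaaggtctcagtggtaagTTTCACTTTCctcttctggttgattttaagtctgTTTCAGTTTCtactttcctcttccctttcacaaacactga
Rsad2, chr12:26456533-26456602, minus strand: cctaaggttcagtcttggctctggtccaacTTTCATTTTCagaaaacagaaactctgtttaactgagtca

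All 18 list members had negative fold changes, so the shared sign of the genes that carry these stretches says nothing about the motif. Isg15, a ubiquitin-like antiviral protein, was at 0.938, 5.18, 3.29 and 1.78 CPM on vehicle and 1.44, 1.35, 1.73, 0.742 and 1.22 CPM on BD10-2. Ifit1, which binds viral RNA, was at 8.75, 24.8, 10.2 and 9.13 CPM on vehicle and between 4.29 and 9.94 CPM on BD10-2. Its neighbour Ifit3 gave -0.66 (SE 0.35), with 48.9 CPM in Mouse1551 and 14.3 to 22.9 CPM in the other 8 mice. Each was highest in Mouse1551.

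In stimulated slices of T41B mice the interferon list had the opposite sign. There the BD10-2 median was 0.30 with 18 of 18 members positive, in a comparison that uses other slices of largely the same mice. In wild-type sham slices the BD10-2 median was -0.27. Irf7 in stimulated T41B slices was at 43.7, 69.8, 63.7 and 27.6 CPM on vehicle, and on BD10-2 at 69.1 in Mouse1563, 121.5 in Mouse1564, 60.8 in Mouse1570, 14.9 in Mouse1592 and 66.4 in Mouse1572. The vehicle mice lay within the range of the BD10-2 mice, and every stimulated slice was above every sham slice, of which the highest was at 14.7 CPM. The difference between the sham and the stimulated treatment values was not tested.

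**Figure D5:**
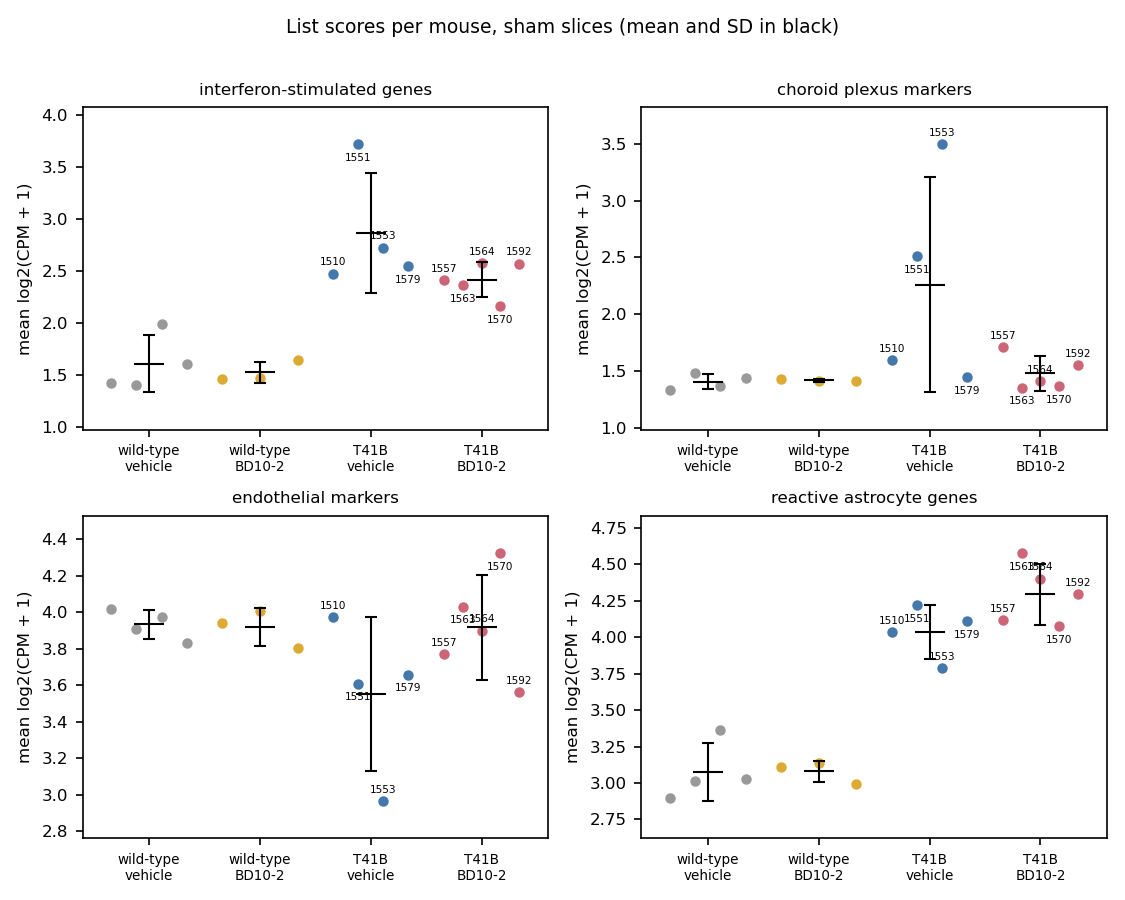
Score of 4 gene lists in sham slices (y axis, mean log2(CPM + 1)) for each mouse of the 4 groups, with T41B mice numbered and the mean and SD in black. The vehicle T41B spread in the interferon panel comes from Mouse1551 at 3.72, and in the choroid plexus panel from Mouse1553 at 3.50 and Mouse1551 at 2.51.

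Choroid plexus markers, genes of the epithelium that makes cerebrospinal fluid beside the hippocampus, had a median of -1.78 (-0.51 in a fit of only the groups compared and -0.47 with batch as a random block), with 0 of 12 positive and 5 lower at an unadjusted p under 0.05, against 1.03% of all genes. Ttr, which encodes the thyroid hormone carrier transthyretin, was at 2.19, 91.6, 472 and 0.0525 CPM on vehicle and 5.36, 0.104, 0, 0.0825 and 0.847 CPM on BD10-2. The 2 high values were those of Mouse1551 and Mouse1553, both of batch G, and the other 2 vehicle mice lay within the range of the BD10-2 mice. Clic6, a chloride channel protein of that epithelium, was at 13.5 CPM in Mouse1553, 2.32 CPM in Mouse1551 and at most 0.583 CPM in the other 7 mice. Without the mice of batch G the list median was 0.08 with 6 of 12 positive. The choroid plexus score was 1.59, 2.51, 3.50 and 1.44 on vehicle and 1.71, 1.35, 1.41, 1.37 and 1.55 on BD10-2. Mouse1551 and Mouse1553 thus had the 2 highest choroid plexus scores, the first also the highest interferon score and the other the highest respiratory score. The part of choroid plexus tissue in the interferon and respiratory values was not tested. In the stimulated slices Ttr was again highest in these 2 mice, at 248.5 and 90.1 CPM.

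Vascular and reactive astrocyte genes had higher means with BD10-2. All 12 endothelial markers were positive with a median of 0.42 (0.25 without Mouse1570, 0.27 without Mouse1553 and 0.18 without batch G), and 11 of 13 mural cell and fibroblast markers were positive with a median of 0.32 (0.15 without batch G). The endothelial score was 3.97, 3.61, 2.97 and 3.66 on vehicle and 3.77, 4.03, 3.90, 4.32 and 3.56 on BD10-2, with Mouse1553 lowest and Mouse1570 highest. Its mean was 3.55 ± 0.423 in vehicle (SD, n = 4) and 3.92 ± 0.286 in BD10-2 T41B mice (SD, n = 5), against 3.93 ± 0.081 in wild-type vehicle mice (SD, n = 4). By genotype 0 of the 12 markers were called, against 5.0% of all genes called higher and 1.24% lower in T41B. That comparison shares the vehicle T41B mice. The endothelial median for BD10-2 was -0.07 in wild-type sham slices (4 of 12 positive) and 0.09 in stimulated T41B slices. Pdgfrb, the receptor that marks pericytes, was the 1 of the 13 mural cell and fibroblast markers whose groups did not overlap (0.406% of all genes lay this way). It was at 17.3, 20.1, 16.4 and 22.6 CPM on vehicle and 24.5, 24.5, 25.8, 26.2 and 25.6 CPM on BD10-2, a fold change of 0.40 (SE 0.16, edgeR unadjusted p = 0.0165), against -0.04 in wild-type and -0.02 in stimulated T41B slices. Itm2a, a membrane protein of endothelial cells, gave 0.43 (SE 0.18). The fibroblast gene Dcn went the other way at -0.79 (SE 0.46), with the 2 highest values in Mouse1510 and Mouse1579.

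Of 16 reactive astrocyte genes 14 were positive, with a median of 0.30 that ran from 0.21 to 0.38 with each mouse left out. Their score was 4.03, 4.22, 3.79 and 4.11 on vehicle and 4.12, 4.58, 4.40, 4.08 and 4.30 on BD10-2. Gfap, the astrocyte intermediate filament, was at 1145, 1991, 1350 and 1500 CPM on vehicle and 1422, 1979, 1775, 1469 and 2161 CPM on BD10-2, a fold change of 0.23 (SE 0.17). Aspg, an asparaginase among the astrocyte genes, was at 5.88, 7.46, 3.67 and 8.03 CPM on vehicle and 5.57, 10.8, 9.42, 7.67 and 11.6 CPM on BD10-2, a fold change of 0.52 (SE 0.21, edgeR unadjusted p = 0.0183). The list median was -0.05 for BD10-2 in wild-type sham slices and 0.38 in stimulated T41B slices. The general astrocyte markers had a median of 0.09, with 13 of 14 positive.

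The genes with the smallest p-values belonged to no single list. They were picked by p in this same comparison, so groups without overlap among them partly follow from that choice. Over all genes, 0.406% lay without overlap above vehicle and 0.354% below. Fbn2, an extracellular matrix fibrillin, came first in edgeR (unadjusted p = 0.000436). It was at 10.94, 8.59, 8.397 and 8.61 CPM on vehicle and 13.1, 11.8, 13.6, 11.4 and 10.86 CPM on BD10-2, a fold change of 0.42 (SE 0.11), so only Mouse1510 reached the lowest BD10-2 mouse. The fold change was 0.24 in wild-type sham slices and -0.06 in stimulated T41B slices. Lgr6, a receptor for R-spondins (ENSMUSG00000042793, chromosome 1, 134983301 to 135105276, minus strand), did not overlap between the groups. It was at 2.69, 2.81, 4.199 and 2.94 CPM on vehicle and 5.64, 4.36, 7.45, 4.37 and 4.98 CPM on BD10-2, a fold change of 0.76 (SE 0.20). In wild-type sham slices the value was -0.28, and the difference of 1.05 (SE 0.29) had an edgeR unadjusted p of 0.0013 without reaching the adjusted threshold. With batch as a term the Lgr6 difference was 0.98 (SE 0.41, edgeR adjusted p = 0.846).

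Cspg4, the NG2 proteoglycan of oligodendrocyte precursors and pericytes (ENSMUSG00000032911, chromosome 9, 56865033 to 56899870), was also without overlap. It was at 33.9, 36.04, 26.1 and 37.4 CPM on vehicle and 42.8, 44.4, 43.2, 41.9 and 44.3 CPM on BD10-2, a fold change of 0.38 (SE 0.13). It was 0.28 in stimulated T41B slices and 0.02 in wild-type sham slices. Lcn2, a secreted iron-binding protein of reactive astrocytes, stood at 1.19, 1.14, 0.372 and 1.21 CPM on vehicle and 1.75, 2.75, 2.02, 1.16 and 2.75 CPM on BD10-2. The other genes of the 12 with the smallest p on the higher side were Card10, Rpl3-ps1, Galnt2, E330034L11Rik, AC132253.9, Gcnt4, Itpripl1 and Lama1. Of these Itpripl1 was without overlap, at 0.64 (SE 0.22).

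Among the 12 genes with the smallest p on the lower side, Dgkb, a neuronal diacylglycerol kinase (ENSMUSG00000036095, chromosome 12, 37817726 to 38634239), was without overlap. It was at 173, 148, 139 and 145 CPM on vehicle and 135, 138, 91.7, 110.5 and 123 CPM on BD10-2, with a fold change of -0.34 (SE 0.11, edgeR unadjusted p = 0.00326). In wild-type sham slices the Dgkb value was -0.00 and in stimulated T41B slices -0.13. Eif4e3, a cap-binding translation factor, was also without overlap, at 17.4, 16.98, 24.3 and 17.5 CPM on vehicle and 16.5, 13.8, 16.1, 13.3 and 16.7 CPM on BD10-2 (-0.31, SE 0.10). Zmym1, Utp4 and Cenpw were the further members of these 12 with no overlap, at -0.30, -0.23 and -0.85. Such separation partly follows from picking the 12 by p (0.354% of all genes lay this way). The rest were Ttr and Clic6, whose values rested on batch G, and Inka1, Usp46, Tgtp1, Rsph9 and Ccdc148.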

How the data were processed

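The authors deposited RSEM expected counts per gene (estimated read counts, 5.69% of cells with decimals), unscaled, for 36 libraries and 55421 genes. Per the labels' protocols, libraries were stranded and depleted of ribosomal RNA. The submitters' processing notes name cutadapt 1.8.1, STAR 2.7.6a, RSEM 1.3.1, featureCounts 1.6 and SAMtools 1.11 and the builds GRCm38.p6 and mm10; the annotation release, and whether counting used strand, are not given in the sources used here, so near-identical, overlapping and antisense genes are uncertain. Symbols matched 55154 of 55421 identifiers. GENCODE M21 gave coordinates, length and GC content.

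Libraries with the same mouse and stimulation labels were added, giving 32 samples of 18 mice in 8 groups. Counts were rounded, filtered with filterByExpr (minimum count 10, 19478 genes), scaled by TMM (factors 0.91 to 1.063) and tested with edgeR 4.0.16 (R 4.3.3) in a quasi-likelihood fit of all 8 groups with 24 residual degrees of freedom, since the spread is then estimated from all mice. Most mice gave a sham and a stimulated slice, and this fit treats the slices of a mouse as independent, so its standard errors assume more independent samples than there are mice; the alternative fit of only the groups compared holds 1 sample per mouse. The contrasts were BD10-2 against vehicle in sham T41B slices and its difference from wild-type sham slices, with a gene called at an adjusted p under 0.05. The precision of each gene is given by its standard error and its 95% interval. Within the groups compared, separate mice are the replicates.

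The samples, 37 gene lists and tests were chosen with earlier results of these data known; 692 of 705 list entries were tested. Genes named by rule were the neurotrophin list, App, Thy1, the 12 smallest unadjusted p-values in each direction at 1 CPM or more, and in each list the member with the highest and the lowest fold change. A few genes that the rule names, and some other list members, are not reported here. Other members named are well-known genes of their lists, picked with their values known. Alternatives were DESeq2 1.42.0, limma 3.58.1 (voom), other scalings and filters, only the groups compared, length and GC offsets, batch as a random block, batch as a fixed term (genotype difference only), each Mouse1557 library alone, and leaving out mice or batches.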

Additional observations from a re-analysis of the deposited data

Results flagged for a closer look

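In each treatment group the list scores and the named genes were screened for a mouse far from the rest of its group, by the gap to its nearest neighbour over the group's range. Chance flags about 1 in 20 groups; here 2 of 74 list-score groups and 13 of 192 gene groups were picked out, 8 in vehicle and 7 in BD10-2 mice. None of these values was given an explanation.

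Mouse1553 (vehicle) stood apart in 4 of them. Its score of Trk signalling intermediates was 6.323, with the other vehicle mice between 6.224 and 6.24. Card10, a scaffold of NF-kappaB signalling, was at 7.6 CPM against 4.514 to 4.641, and Eif4e3 was at 24.29 CPM against 16.98 to 17.48. Lcn2 was at 0.372 CPM against 1.135 to 1.207.

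Mouse1510 (vehicle) was the highest of its group for 3 genes. Fbn2 was at 10.94 CPM against 8.397 to 8.608, E330034L11Rik at 3.688 CPM against 2.863 to 2.939, and Zmym1 at 8.001 CPM against 6.714 to 6.876. In Mouse1551 (vehicle) Slc17a6, the vesicular glutamate transporter of thalamic and other subcortical neurons, was at 1.975 CPM against 10.44 to 13.23.

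Mouse1563 (BD10-2) accounted for 6. Its score of citric acid cycle and biogenesis genes was 6.258, with the other BD10-2 mice between 6.338 and 6.362. It was the lowest BD10-2 mouse for the oligodendrocyte genes Mbp (2594 CPM against 3658 to 3977), Trf (345.7 CPM against 444.9 to 489.9) and Bcas1 (199.0 CPM against 282.6 to 299.7), and for Cox7c (41.63 CPM against 53.45 to 57.2). It was the highest for the lactate transporter Slc16a3, at 5.236 CPM against 4.226 to 4.454. In Mouse1592 (BD10-2) Card10 was at 5.72 CPM against 8.556 to 9.245.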

How the results depend on the processing

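Over 22 alternatives, 20 of them planned, no alternative called a gene for the treatment or for its difference between genotypes, and the smallest adjusted p was 0.894. A further fit of the genotype difference alone, with batch as a fixed term and added after seeing the data, also called 0 genes (smallest adjusted p 0.846). The number of genes at an unadjusted p under 0.05 was 431 of 19478 tested with all mice. It was 871 of 37214 without a count filter and 283 of 17853 in a fit of only the groups compared. It was 654 with length and GC offsets, 257 without both mice of batch H, and 294 to 917 with each mouse left out (917 without Mouse1510, 676 without Mouse1579). Of these genes, 53.4% were higher with BD10-2 in the fit of all groups, 37.3% with length and GC offsets, 63.3% with only the groups compared and 68.8% with batch as a random block. The choroid plexus median (-1.78) was -0.51 with only the groups compared, -0.47 with batch as a random block, 0.08 without batch G, and -2.06 to -0.77 with each mouse left out. The interferon median (-0.71) was -0.16 without batch G and -0.88 to -0.20 with each mouse left out. The glycolysis median (-0.11) was -0.049 without batch H and -0.139 to -0.028 with each mouse left out. Beyond leaving out mice, the cause of these moves was not tested. The omissions of batches G and H were chosen after seeing the data. The median kept its sign under every alternative in 16 of 37 lists, among them presynaptic genes (-0.16 to -0.06), homeostatic microglia (0.05 to 0.27), reactive astrocyte genes (0.17 to 0.38) and endothelial markers (0.18 to 0.55). No paired analysis was possible because the groups compared share no mouse and no replicate number. The median standard error was 0.16 over all genes and 0.106 over genes of at least 10 CPM; among lists it ran from 0.094 for Trk signalling intermediates to 0.836 for choroid plexus markers. Treatment and batch remain inseparable.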

Other observations

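Markers of hippocampal subfields and of neighbouring regions varied around 0, with 0 members at an unadjusted p under 0.05 in edgeR in either direction. The medians were -0.13 for CA1 and subiculum markers (3 of 9 positive), 0.00 for CA2 and CA3 markers (5 of 10), -0.03 for dentate gyrus markers (4 of 10), 0.13 for thalamic and striatal markers (9 of 13) and -0.14 for interneuron markers (4 of 15). Over the alternatives these medians ran from -0.18 to 0.02, -0.09 to 0.08, -0.14 to 0.25, -0.01 to 0.18 and -0.31 to -0.07. Myelinating oligodendrocyte markers had a median of 0.07 (11 of 14 positive), which ran from -0.08 without Mouse1510 to 0.44 without batch G. Oligodendrocyte precursor markers had a median of 0.09 (7 of 10), from 0.02 without Mouse1510 to 0.29 without batch G. Cholesterol and fatty acid synthesis genes had a median of -0.09, with 4 of 24 positive and a range from -0.14 to -0.02. Mvd, which makes an isoprenoid precursor, was their lowest member at -0.41. Heat shock and protein folding genes had a median of -0.10 (4 of 14 positive, range -0.12 to -0.01), circadian clock genes 0.09 (7 of 10, -0.02 to 0.13) and APP processing and tau genes -0.01 (6 of 15, -0.03 to 0.03). Acute inflammatory genes had a median of 0.12 (9 of 15 positive), from -0.31 without batch H to 0.36 without batch G. Their member Il1rn, the interleukin-1 receptor antagonist, had the lowest value at -1.81 (SE 0.81), with 5.26 CPM in Mouse1553 and at most 1.63 CPM in the other 8 mice. The remaining lists were neurogenesis and cell cycle genes (0.01, 3 of 6 positive, -0.14 to 0.07), blood cell genes (-0.09, 2 of 8, -0.24 to 0.15) and sex-linked genes (-0.01, 2 of 4, -0.12 to 0.07).

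Rpl3-ps1, a processed pseudogene of the ribosomal protein gene Rpl3 on the X chromosome, was among the genes with the smallest p-values because 3 of the 5 BD10-2 mice were far above all others. It was at 9.13, 10.02, 15.2 and 11.97 CPM on vehicle, and on BD10-2 at 60.1 in Mouse1557, 93.2 in Mouse1563, 106.9 in Mouse1564, 12.9 in Mouse1570 and 7.36 in Mouse1592. The stimulated slices of Mouse1563 and Mouse1564 were at 102.2 and 111.6 CPM, and the other 27 samples of the study lay between 5.332 and 15.2 CPM. In the 5 samples of these 3 mice Rpl3 itself was between 196.7 and 275.7 CPM, against 253.1 to 450.8 CPM in the other 27. Reads are divided between near-identical copies by estimate, so both values are uncertain.

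The 2 libraries of Mouse1557 differed for some genes of the lists above. Ttr was at 0 CPM in one and 10.7 CPM in the other, Cst7 at 37.9 and 19.02 CPM, Cx3cr1 at 104.1 and 71.8 CPM, and Rpl3-ps1 at 80.7 and 40.05 CPM.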
